A study of Mus musculus with 6 samples.

Results

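The genes described here are the histone genes of the Hist clusters, taken as every row of the gene table whose symbol begins with Hist1h, Hist2h, Hist3h or Hist4h. There were 29 such genes among 34203 rows, of which 19 lie in the Hist1 cluster, 7 in Hist2, 2 in Hist3 and 1 in Hist4. By family they comprised 6 linker histone H1 genes, 5 H2A, 8 H2B, 4 H3 and 6 H4 genes. At least 1 unique molecular identifier (UMI, the count of 1 captured molecule) was found for 23 of the 29. The other 6 (Hist1h1t, Hist1h2aa, Hist1h2bp, Hist1h2bq, Hist2h2ab and Hist2h3b) had none in any of the 658 cells.

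The cells came from the lateral subventricular zone (SVZ), the stem cell niche along the lateral ventricle, of adult Nestin-CreERT2:R26-yfp mice given tamoxifen, so that the cells with Nestin promoter activity and their progeny carried the reporter. The 3 conditions were sampled with 2 libraries each: uninjured mice, and mice taken 1 day (PT D1) or 7 days (PT D7) after photothrombotic ischemia (PT), a cortical stroke made by lighting a photosensitive dye, where the SVZ on the lesion side was used. Reporter-positive neural stem and precursor cells (NSPCs, 222 cells) and CD11b+CD45low microglia (416 cells) were sorted into plates and sequenced by mCEL-Seq2, and 20 further cells formed a mixed cluster that the authors named Unknown/Ependymal. The sources used here do not give the number of mice behind each library, nor the plate each library came from. By the paper's methods a plate held more wells than 1 library, so the 2 libraries of a condition may be parts of 1 plate. They may thus be technical replicates, and plate and condition could then not be told apart. The p-values between conditions therefore measure the spread between libraries. Those between cell-cycle phases, fitted with library as a block, measure how far the phase differences varied from library to library.

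Histones package DNA: H2A, H2B, H3 and H4 form the nucleosome core and H1 binds the linker DNA between nucleosomes. Most Hist cluster genes are replication-dependent. They are transcribed in S phase, when new DNA needs new histones, and their mRNAs normally end in a short stem-loop bound by the protein Slbp rather than in a poly(A) tail. A few members also make polyadenylated transcripts, in particular in cells that have left the cell cycle. In the SVZ, quiescent type B cells are stem cells out of cycle, activated type B cells and type C cells are the dividing stages, and neuroblasts are their migrating progeny. mCEL-Seq2 primes on poly(A), so the values below describe Hist transcripts that could be primed by poly(T), not the whole pool of histone mRNA.

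The stem-loop that ends the replication-dependent mRNAs was searched for within 300 bases after the stop codon. It is shown because it is the feature that sets these transcripts apart in a poly(A)-primed library. Of 26 members matched to the GENCODE annotation of GRCm39, 22 held it, against 0.296% of 21646 genes searched, and 4 forms occurred, with the 6-base arms in capitals and the loop in lower case.
Form in 14 members, Hist1h2bc, Hist1h1e, Hist1h1c, Hist1h2ab and Hist1h1b among them: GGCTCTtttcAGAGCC
Form in 4 members, Hist1h2ba and Hist1h3e among them: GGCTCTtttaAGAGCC
Form in Hist1h4i and Hist2h4: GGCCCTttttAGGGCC
Form in Hist1h4b and Hist1h4j: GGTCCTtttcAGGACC
In Hist1h1e the stem-loop lay at chr13:23805765-23805780 on the minus strand, in the annotated 3′ UTR, and in Hist1h2bc at chr13:23868630-23868645 on the plus strand. Hist2h2be held none of this form within the window. In genomic bases, which count any intron, the annotated gene ended 9518 past the stem-loop in Hist1h2bc. The span was 1153 in Hist1h1e and 840 in Hist1h1c, but only 11 in Hist1h2ab. The annotated model of Hist1h1b ended before its stem-loop, yet the gene still gave 64 UMIs. Hist3h2a, Hist3h2ba and Hist4h4 were not matched.

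Windows before 3 of the linker histone genes are shown as the 120 bases before their annotated start (GRCm39), because H1 is the family with the most UMIs and these are its 3 most counted members. Capitals mark TATAAA, the TATA box; CCAAT or its reverse complement; and AAACACA, the H1 box.
Hist1h1e, chr13:23806542-23806661, minus strand: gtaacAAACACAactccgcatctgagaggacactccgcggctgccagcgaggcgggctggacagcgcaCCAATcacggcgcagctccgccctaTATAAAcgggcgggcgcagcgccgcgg
Hist1h1b, chr13:21964796-21964915, minus strand: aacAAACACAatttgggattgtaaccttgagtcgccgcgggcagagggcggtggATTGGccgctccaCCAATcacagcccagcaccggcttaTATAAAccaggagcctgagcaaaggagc
Hist1h1c, chr13:23922671-23922790, plus strand: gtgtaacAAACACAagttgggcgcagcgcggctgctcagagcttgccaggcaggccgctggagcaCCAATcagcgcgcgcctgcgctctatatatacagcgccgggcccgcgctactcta
All 3 windows held AAACACA and CCAAT, and those of Hist1h1e and Hist1h1b also held TATAAA. On either strand of windows of this length, AAACACA was found in 4 of the 6 H1 members and in 2.42% of 21757 promoters, CCAAT in 5 and 24.3%, and TATAAA in 4 and 6.21%. These letters are a description of the windows only.

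The Hist genes were sparse. They gave 1094 of 3990653 UMIs, a level of 274 CPM (UMIs of the gene for every 1000000 UMIs of the cells summed), and at least 1 was seen in 342 of 658 cells (52.0%). Because each molecule is tagged once at its 3′ end, CPM was not divided by gene length. Hist1h2bc, an H2B gene, gave 226 UMIs, Hist1h1e and Hist1h1c, both linker histones, gave 164 and 156, and Hist3h2a, an H2A gene, gave 114. These 4 genes held 60.3% of all Hist UMIs, while 12 members gave between 1 and 14. Among families, H1 gave 417 UMIs, H2B 351, H2A 183, H4 110 and H3 33. Core histone genes of 1 family are near-identical in coding sequence, so that the split of reads between them is uncertain. Some members also overlap another histone gene (Hist1h1e with Hist1h2be, Hist1h2bc with H2ac6), and their reads are uncertain for that reason.

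The libraries held 74 to 147 cells and 413299 to 1020667 UMIs. Cells had 1001 to 27321 UMIs, with a library median of 4820 to 6066. Of 180 well numbers in the cell names, 164 occurred in more than 1 library, as plate layouts do. The 8 microglia markers summed to 15564 CPM in microglia and 971 CPM in NSPCs, and the 8 NSPC markers to 4017 CPM in NSPCs and 331 CPM in microglia. UMIs of at least 3 markers of the other class were seen in 106 NSPCs and 33 microglia. The 8 choroid plexus and ependymal markers summed to 1549 and 3813 CPM in the NSPCs of the uninjured libraries and 59.2 to 121 CPM in those of the 4 PT libraries, and in microglia to 10533 and 4675 CPM against 209 to 624 CPM; of these markers, Rarres2 had no UMI in microglia.

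Summed over all members, NSPCs had 454 CPM (95% exact Poisson interval 421 to 488, counting error only) and microglia 109 CPM (96.1 to 124), a ratio of 4.15 (3.58 to 4.82). These levels are given without a test, since the classes were drawn from the same cells' expression. Type C cells had 693 CPM (613 to 780), activated type B cells 454 (392 to 524), neuroblasts 343 (292 to 401) and quiescent type B cells 309 (249 to 378). Over libraries with at least 3 cells, the mean was 637 ± 158 (SD, n = 6) for type C cells, 470 ± 124 (SD, n = 5) for activated type B cells, 253 ± 116 (SD, n = 6) for neuroblasts and 300 ± 142 (SD, n = 6) for quiescent type B cells. Type C cells thus stood highest on the mean, but their libraries (399 to 809 CPM) overlapped those of activated type B cells (336 to 640 CPM). Quiescent type B cells and neuroblasts differed by less than their spread over libraries. Without cells holding 3 or more microglia markers, type C cells had 751 CPM, activated type B cells 343, neuroblasts 323 and quiescent type B cells 300.

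**Figure D1:**
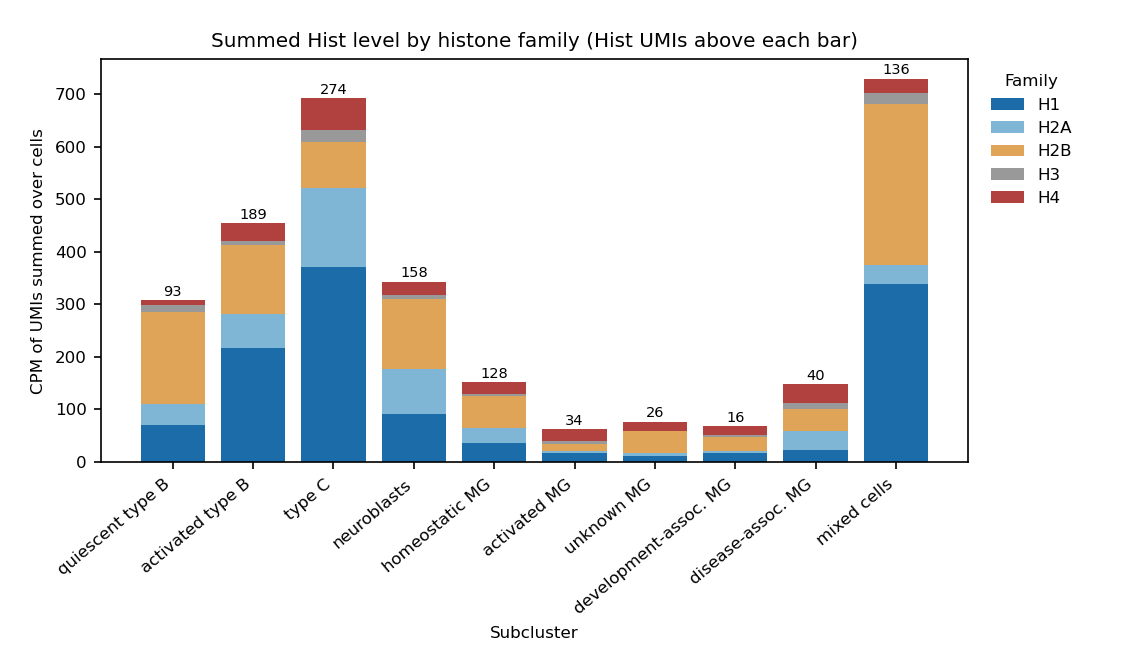
Summed Hist level in CPM (bar height) of each subcluster, split by histone family, with the number of Hist UMIs printed above each bar; MG is microglia. Type C cells (693 CPM) and the 20 mixed cells (730 CPM) stand highest, and the blue H1 part makes up most of the type C bar.

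The families were not shared out alike along the NSPC stages. From quiescent through activated type B cells and type C cells to neuroblasts, the H1 genes summed to 69.7, 216, 372 and 91.3 CPM. Type C cells had the highest H1 level in each of the 3 conditions. Over all conditions H2A and H4 were also highest in type C cells, at 149 and 60.7 CPM, although activated type B cells equalled them for H2A in uninjured mice (both 125 CPM) and exceeded them for H4 at PT D7 (88.1 against 68.1 CPM). H2B pooled over conditions was highest in quiescent type B cells (176 CPM, interval 132 to 230) and lowest in type C cells (88.5 CPM, 61.7 to 123). This order held for uninjured mice (236 against 76.5 CPM) and PT D7 (214 against 96.4) but not for PT D1, where quiescent type B cells were lowest (77.5 CPM on 8 UMIs, against 7 UMIs and a higher level in type C cells). The H3 genes stayed between 6.5 and 22.8 CPM with at most 9 UMIs in a stage, and no order can be read among them.

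Single members followed opposite courses. Hist1h1e, which encodes linker histone H1.4, had 16.6, 123, 197 and 28.3 CPM along the same 4 stages, except that at PT D1 activated type B cells (158 CPM) lay above type C cells (146 CPM). Hist1h1b (H1.5) had no UMI in the 50 quiescent type B cells, which at this depth allows up to 3 counts, and 50.4, 91.1 and 13.0 CPM in the other stages in that order. Hist1h2ab, an H2A gene, likewise had none in quiescent type B cells and 33.6, 106 and 17.4 CPM. In every one of the 6 libraries both genes were at 0 in quiescent type B cells and above 0 in type C cells, where Hist1h1b ranged from 26.6 to 108 CPM and Hist1h2ab from 24.5 to 186 CPM. Some of these values rest on 1 UMI in type C cells: Hist1h1b in uninjured library 1 and PT D7 library 1, and Hist1h2ab in PT D1 library 2. Several libraries held few quiescent type B cells (listed under other observations), where 0 UMIs says little.

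Hist1h2bc ran the other way, with 133, 62.5, 25.3 and 58.7 CPM along the stages. By library it had 139 and 192 CPM (uninjured), 83.5 and 50.5 (PT D1) and 121 and 165 (PT D7) in quiescent type B cells, against 0 to 83.7 CPM in type C cells. Quiescent type B cells were higher than type C cells in all 6 libraries, but at PT D1 activated type B cells were highest (76.6 CPM, against 58.1 in quiescent ones). In library 1 of uninjured, PT D1 and PT D7 this order rests on 2, 2 and 3 UMIs in quiescent type B cells. Type C cells of these libraries had 2, 1 and 1. The 40 UMIs of Hist1h2bc in quiescent type B cells lay in 22 cells, and the richest cell held 8. Hist1h1c (H1.2) had 53.1 CPM in quiescent type B cells and 26.4 to 45.6 CPM in the other stages, and 1 cell held 7 of its 16 UMIs in quiescent type B cells. Quiescent type B cells were highest only in uninjured mice (92.8 CPM, 11 UMIs). Type C cells were at PT D1 (39.9 against 19.4 CPM) and neuroblasts at PT D7 (60.8 against 37.8 CPM), on 2 to 8 UMIs each. Among H1 UMIs, Hist1h1c accounted for 76.2% in quiescent type B cells (16 of 21, exact binomial interval 52.8 to 91.8), and Hist1h1e for 56.7% in activated type B cells (51 of 90, interval 45.8 to 67.1). The quiescent type B cells of PT D1 went the other way, with 5 UMIs of Hist1h1e and 2 of Hist1h1c.

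**Figure D2:**
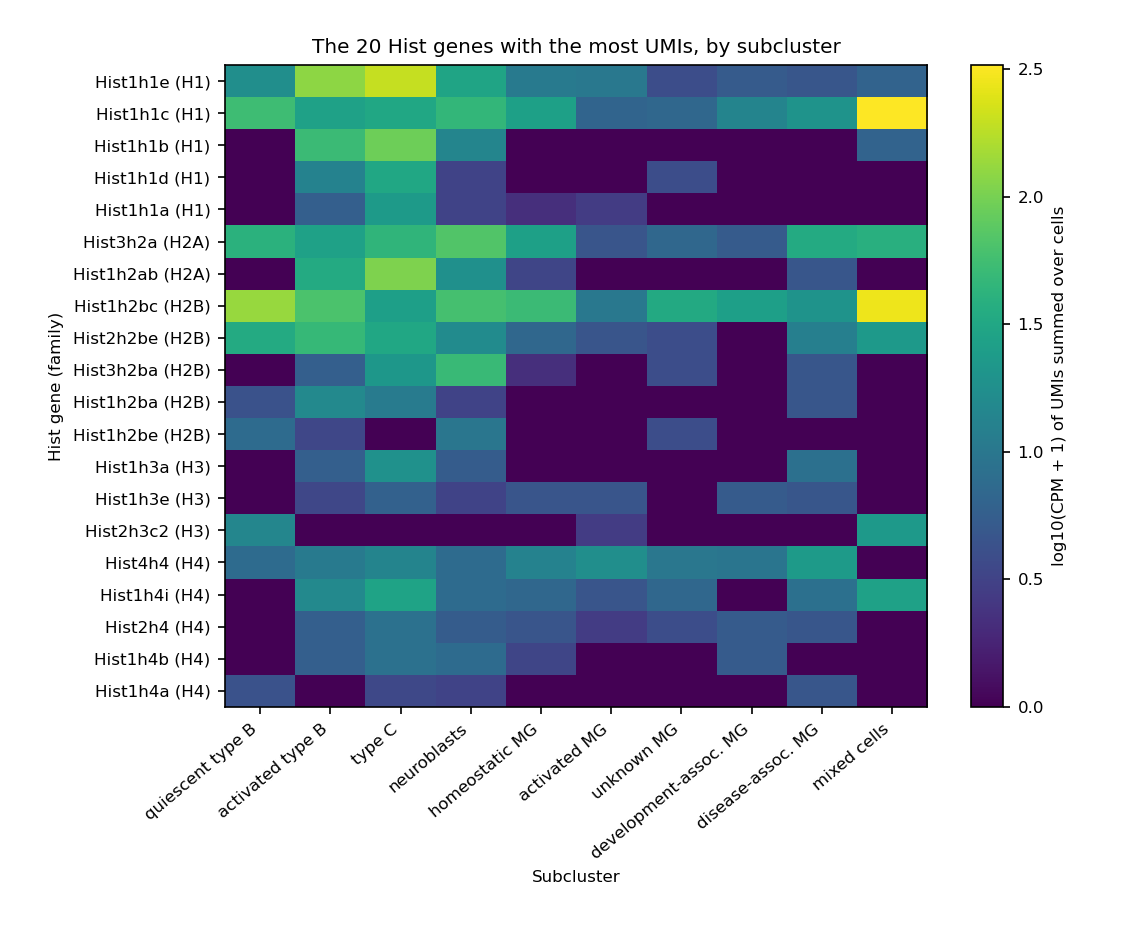
Heat map of the 20 Hist genes with the most UMIs (rows, by family) in each subcluster (columns); colour is log10 of CPM plus 1. Hist1h1e, Hist1h1b and Hist1h2ab are brightest in type C cells, Hist1h2bc in quiescent type B cells and mixed cells, and Hist3h2ba in neuroblasts.

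The genes of the Hist3 cluster were next. Pooled over conditions, Hist3h2a was at 67.4 CPM (31 UMIs) in neuroblasts, 43.0 in type C, 39.8 in quiescent and 26.4 in activated type B cells. Neuroblasts were highest only in uninjured mice (92.9 CPM, 23 UMIs), whereas at PT D1 type C cells were (79.7 against 37.0 CPM in neuroblasts) and at PT D7 quiescent type B cells (50.4 against 38.0 CPM), on 3 to 6 UMIs each. Hist3h2ba, the H2B gene of the same cluster, was at 50.0 CPM (23 UMIs) in neuroblasts, 20.2 in type C cells, 4.8 in activated type B cells and 0 in quiescent type B cells, and neuroblasts were highest in each of the 3 conditions. Hist2h2be, another H2B gene, had 48.0 CPM in activated type B cells and 15.2 CPM in neuroblasts when pooled; at PT D1 type C cells were highest (66.4 CPM, 5 UMIs). The lower H1 genes, Hist1h1d and Hist1h1a, reached 30.4 and 22.8 CPM in type C cells, on 12 and 9 UMIs (10 of the 12 from uninjured mice), and had no UMI in quiescent type B cells. Among H4 genes, Hist1h4i had 27.8 CPM in type C cells and 0 in quiescent type B cells, whereas Hist4h4 stayed between 6.5 and 12.6 CPM in all 4 stages. The remaining 8 of the 20 (Hist2h4, Hist1h2ba, Hist1h3a, Hist1h3e, Hist1h4b, Hist2h3c2, Hist1h2be and Hist1h4a) had at most 7 UMIs in any NSPC stage and at most 17.7 CPM.

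Hist1h1b and Hist1h1e, high in type C cells, were scarce in microglia. Hist1h1b had no UMI in any of the 416 microglia, a count whose limit of 0.721% is one on cells showing a UMI at this depth, not on cells expressing the gene, and 63 UMIs in NSPCs, at least 29.8-fold more with the microglial value at the floor of 3 UMIs. Hist1h1e was 13.0-fold (interval 7.76 to 23.4) higher in NSPCs and Hist1h2bc 2.09-fold (1.53 to 2.87). Hist4h4 was the exception among members with at least 20 UMIs, with 14 UMIs in NSPCs and 30 in microglia, a ratio of 0.662 whose interval (0.324 to 1.29) spans equality. The summed level was 153 CPM in homeostatic, 149 in disease-associated, 76.9 in unknown, 67.8 in development-associated and 61.9 in activated microglia. Hist1h2bc led in homeostatic microglia (51.2 CPM, 43 UMIs), while Hist4h4 led in activated microglia (16.4 CPM, 9 UMIs).

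Deeper cells show a Hist UMI more often. The share of cells with any Hist UMI was 76.6% in NSPCs (median 6449 UMIs per cell) and 37.5% in microglia (median 4854.5 UMIs). After every cell was thinned to 1000 UMIs, with no cell left out, it was 31.5% (exact binomial interval 25.5 to 38.1) and 10.6% (7.79 to 13.9). Hist1h1e was then seen in 6.76% (3.83 to 10.9) of NSPCs and 0.481% (0.0583 to 1.73) of microglia, a class expected to hold few dividing cells.

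The Phase column, the authors' call of G1, S or G2M for each cell, asked how the members vary over the cell cycle. How it was made was not given in the sources used here, and whether its scores drew on any Hist gene is not known. The same cell table holds an S and a G2M score for each cell, so the column is taken here as called from the same cells' expression. The p-values below thus describe genes that go with the column, not a test of independent groups. In NSPCs the summed level was 313 CPM in 99 G1 cells (268 to 362), 410 in 64 S cells (355 to 471) and 652 in 59 G2M cells (584 to 726). The order G1 below G2M held in all 6 libraries, from 140 CPM against 827 in PT D1 library 1 to 258 against 377 in PT D1 library 2. Stage and phase went together: type C cells held no G1 cell (25 S and 22 G2M) and quiescent type B cells held 47 G1 of 50.

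In the fit with the usual filter on low counts (edgeR's quasi-likelihood test on sums per library and phase, library as a block), none of the 29 members passed the filter among 1150 genes. Calls below come from the same fit without a filter, which tested 17519 genes and 23 members and called 4.55% of all genes for S and 5.09% for G2M against G1 (higher 2.23% and 2.67%, lower 2.32% and 2.41%) at an adjusted p under 0.05 (Benjamini-Hochberg). Of the members, 3 were called in S, all higher, and 5 in G2M, 4 higher and 1 lower. A filter of at least 10 UMIs in total, chosen after seeing the data, tested 14 members among 10644 genes, called 8.77% and 9.42% of all genes, and also gave 3 and 5 members.

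Hist1h1b had 0 UMIs in G1 cells of every library, and in G2M cells 74.3 and 72.3 CPM (uninjured), 169 and 72.9 (PT D1) and 54.3 and 74.2 (PT D7). The groups did not overlap, but the G2M value of PT D7 library 1 rests on 1 UMI and that of uninjured library 1 on 3 UMIs in 1 cell. The share of all genes with such a separation is not given. Against the floor of 3 UMIs over all G1 cells, it was at least 7.75-fold higher in S and at least 15.9-fold higher in G2M cells, with edgeR adjusted p = 9.01e-05 and 3.13e-09, and higher in 5 and 6 of 6 libraries.

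Hist1h1e had 22.7 and 9.03 CPM in G1 cells of the uninjured libraries, 0 and 44.2 at PT D1 and 0 in both PT D7 libraries. In G2M cells it had 0 and 249, 338 and 170, and 54.3 and 154 CPM in the same order. Only uninjured library 1, with 4 G2M cells, was not higher. Its log2 fold change was 2.27 (SE 0.54, edgeR adjusted p = 0.00137) in S and 3.31 (SE 0.48, adjusted p = 7.59e-10) in G2M cells.

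Hist1h2ab had 1 UMI in all G1 cells, 16 in S and 47 in G2M cells, ratios of 18.6 (interval 2.89 to 780) and 52.1 (8.91 to 2102). It was higher in 4 and 6 of 6 libraries and was called in both comparisons, with edgeR adjusted p = 0.00760 and 1.80e-08. Hist1h1d (H1.3) had none in G1 and 11 UMIs in G2M cells, at least 4.07-fold more, and was called in G2M (adjusted p = 0.0278, higher in 4 of 6 libraries). In S cells, where it had 7 UMIs, it did not pass (adjusted p = 0.0975).

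Hist1h2bc was the member called lower. It had 68.1 and 117 CPM (uninjured), 56.0 and 81.1 (PT D1) and 147 and 104 (PT D7) in G1 cells, and 74.3 and 24.1, 33.8 and 24.3, and 0 and 58.3 CPM in G2M cells. It was lower in G2M in 5 of 6 libraries, with a log2 fold change of -1.45 (SE 0.44, edgeR adjusted p = 0.0224), and in S cells it did not pass (-1.04, SE 0.42, adjusted p = 0.176). In that fit it was called in 3 of 6 fits that left out 1 library and not without uninjured library 2 (adjusted p = 0.432), PT D1 library 2 (0.0744) or PT D7 library 2 (0.0522), nor without TMM scaling (0.0538). Within neuroblasts alone it had 39.1 CPM in G1 (10 UMIs) and 70.0 CPM in G2M cells (7 UMIs in 3 cells). This is the opposite order, on counts too few to rank the phases.

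Hist1h1b, Hist1h1e and Hist1h2ab stayed called in G2M in all 6 leave-one-out fits, and Hist1h1b in S as well. Hist1h1e in S was lost without uninjured library 2 (adjusted p = 0.210) and Hist1h2ab in S without uninjured library 2 (0.122) or PT D7 library 1 (0.0658). Hist1h1d in G2M was lost without uninjured library 1 (0.0653) or uninjured library 2 (0.893).
Within neuroblasts alone, as a description, Hist1h1b went from 0 UMIs in 48 G1 and 17 S cells to 6 UMIs in 15 G2M cells. Hist1h2ab went from 3.9 and 0 to 70.0 CPM and Hist1h1e from 15.6 and 19.2 to 70.0 CPM, on 7 UMIs each in G2M cells. In type C cells, Hist1h1e was at 122 CPM in S and 265 CPM in G2M cells. The comparison restricted to activated type B and type C cells held only 4 G1 cells. Of these, only the 3 of PT D1 library 2 formed a sum that entered the edgeR fit without a filter. With no replicate on the G1 side, calls from that fit cannot decide on any member and are not given. Its log2 changes for G2M were 5.45 for Hist1h1b, 6.78 for Hist1h1e, 4.54 for Hist1h2ab, 3.24 for Hist1h1d and -3.35 for Hist1h2bc. In all NSPCs they were 5.84, 3.31, 4.78, 4.06 and -1.45. The restricted comparison was not run with DESeq2. G2M against S cells, added after seeing the data, called 0 of 23 members with 0.759% of all genes called by edgeR, with 4 members at an unadjusted p under 0.05; it was not run with DESeq2.

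**Figure D3:**
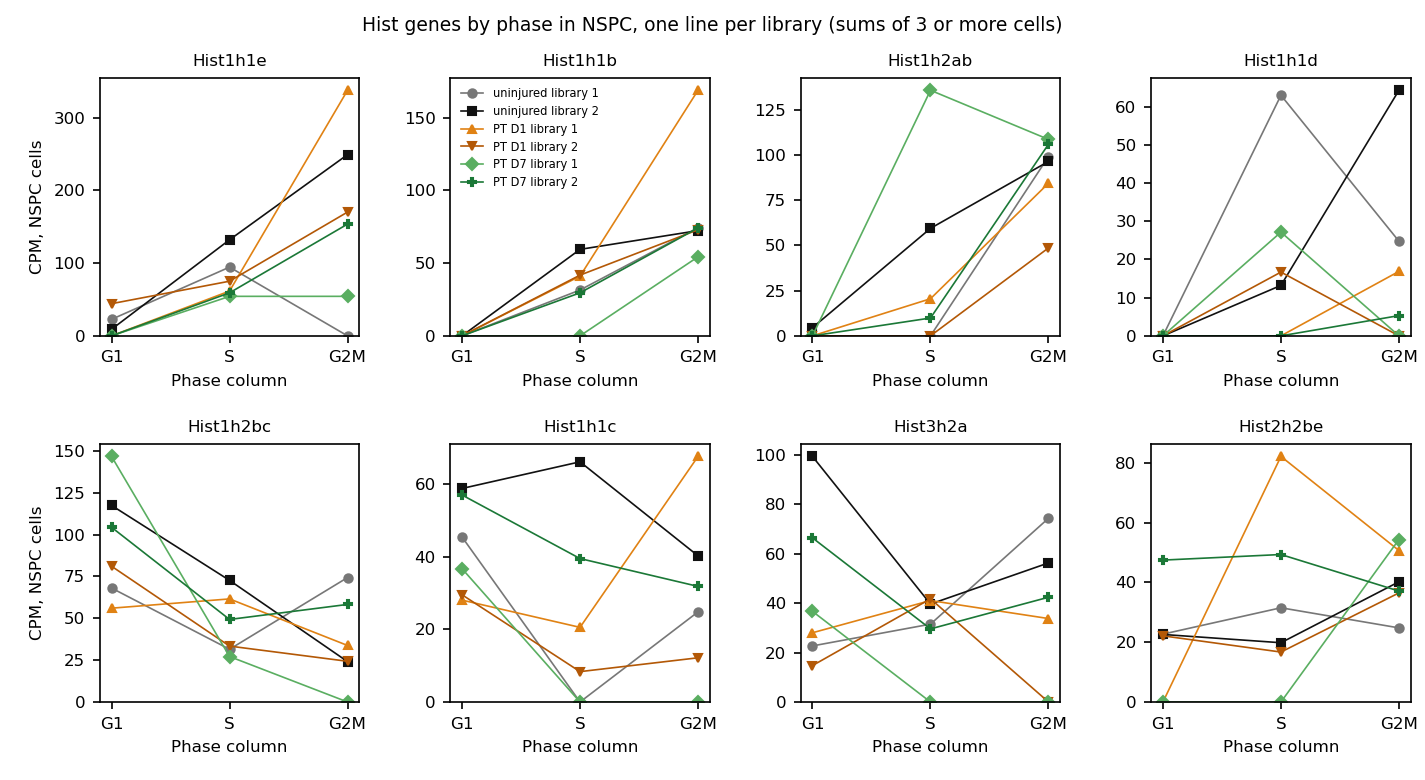
CPM of 8 Hist genes in G1, S and G2M cells of the NSPC class, 1 line for each of the 6 libraries (sums of at least 3 cells). Hist1h1b is at 0 in G1 in every library and at 54.3 to 169 CPM in G2M, the lowest of these on 1 UMI. Hist1h2bc starts at 56.0 to 147 CPM in G1 and is lower in G2M in 5 of 6 libraries.

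Of the other 18 members tested without a filter, none was called in either comparison. Hist1h1c had a log2 change of -0.70 (SE 0.52, edgeR adjusted p = 0.797) in G2M against G1 cells, so that this linker histone did not share the rise of Hist1h1b and Hist1h1e in the same fit, although the difference between the genes was not tested. Hist3h2a had a change of -0.68 (SE 0.49, adjusted p = 0.758). Hist1h4i had 2 UMIs in G1 and 15 in G2M cells, and its log2 change of 2.47 (SE 0.98) did not pass (adjusted p = 0.157).

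Some histone genes outside the clusters, and some of the chaperones that hand histones to DNA, passed the usual filter. Of 12 listed histone variants, 7 were tested in NSPCs, and 4 rose in S (background 33.2% of 1150 genes called) and 5 in G2M against G1 cells (background 33.9%), none lower. H2afz (H2A.Z) rose by a log2 fold change of 1.97 (SE 0.21, edgeR adjusted p = 2.66e-07) in S and 2.58 (SE 0.21, adjusted p = 2.60e-09) in G2M cells, and H2afx (H2A.X) by 4.01 in G2M cells (SE 0.36, adjusted p = 1.79e-08). H3f3b (H3.3) did not pass in S (0.43, adjusted p = 0.0552) and rose by 0.94 in G2M (adjusted p = 0.000131). Slbp, which binds the stem-loop shown above, was the only member of 12 histone mRNA processing genes tested. It rose by 2.55 (SE 0.32, adjusted p = 1.76e-06) in S and 1.57 (SE 0.35, adjusted p = 0.00126) in G2M cells, and its level was highest in S cells (247 CPM, against 31.6 in G1 and 132 in G2M). Of 20 chaperone and assembly genes, 9 were tested and 6 rose in S and 7 in G2M cells, including Nasp, a carrier of H3 and H4, by 2.18 and 2.16. All 11 tested S phase genes, Slbp among them, rose in S and all 11 tested G2/M genes in G2M cells. Genes of this kind are what phase calls usually rest on, so these counts and the rise of Slbp describe the column. Whether Nasp or other genes named here entered the scores is not known.

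Microglia held 15 S and 14 G2M cells among 416. Their summed Hist level was 100 CPM in G1 (87.3 to 115), 171 in S (82.0 to 314) and 324 in G2M cells (205 to 486), on 211, 10 and 23 UMIs. Only Hist1h2bc passed the filter among 2454 genes, and it was not called in S (log2 0.55, SE 1.32, edgeR adjusted p = 0.959; 0% of all genes called) or G2M (0.37, SE 1.09, adjusted p = 0.862; 13.6% called). By edgeR 0 members had an unadjusted p under 0.05, and DESeq2 called 0. Hist1h2ab gave 3 UMIs in G2M microglia and none in G1. UMIs of NSPC markers moved with these cells: 3 of the 4 tested NSPC markers were higher, Sox11 and Sox2 among them, and 6 of 8 microglia markers lower in G2M microglia, and their part in the result was not tested.

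Conditions were then compared over libraries. The summed NSPC level was 507 CPM for uninjured mice, 364 for PT D1 and 477 for PT D7. The libraries had 379 and 537 CPM (uninjured), 522 and 296 (PT D1), and 291 and 516 (PT D7), so that the libraries of each condition lay across those of the others. The share of type C cells was 18.8% and 20.3%, 26.3% and 7.69%, and 40% and 27.9% of NSPCs in the same order. Within the uninjured and PT D1 pairs, the library with the higher share had the higher summed level. Within the PT D7 pair it had the lower one. The part of this share in the levels was not tested.

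Among 4907 genes, 7 members could be tested in NSPCs (Hist1h2ab, Hist1h1b, Hist1h1c, Hist1h1e, Hist1h2bc, Hist2h2be and Hist3h2a), and 0 of 7 were called at PT D1 against uninjured (2.12% of all genes called), 0 at PT D7 against uninjured (0.0815%) and 0 at PT D7 against PT D1 (0.632%) by edgeR. At an unadjusted p under 0.05 there were 1, 0 and 1, and DESeq2 called 0 in each. For counts at an unadjusted p, here and elsewhere, the share of all genes is not given, so they have no background. Their median log2 changes were -0.66, -0.24 and 0.41, beside 0.026, 0.0078 and -0.0029 over all genes tested. The PT groups share the uninjured controls, and these medians rest on 7 of 29 members.

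TMM-scaled CPM, which correct for library composition, are given here and for the single genes tested between conditions in microglia. Summed levels and levels within subclusters are not TMM-scaled. Hist3h2a had 47.9 and 84.7 in uninjured NSPCs, 37.3 and 23.5 in those of PT D1, and 13.2 and 51.4 in those of PT D7. Both PT D1 libraries were below both uninjured libraries. The log2 change at PT D1 was -1.37 (SE 0.55), which did not pass over all genes (edgeR adjusted p = 0.221). Hist1h2ab had 38.3 and 53.2, 44.7 and 13.4, and 92.6 and 59.9 CPM in the same order, with both PT D7 libraries highest, and its change from PT D1 to PT D7 of 1.49 (SE 0.61) did not pass (adjusted p = 0.345). Hist1h1e had 38.3 and 128, 172 and 97.5, and 39.7 and 99.9 CPM, and its libraries overlapped in every pair of conditions. Hist1h2bc lay between 52.2 and 96.8 CPM in all 6 libraries.

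In microglia the summed level was 157 CPM for uninjured mice (178 and 141 by library), 63.2 for PT D1 (52.8 and 71.5) and 105 for PT D7 (91.5 and 118). All 3 conditions were separate, with PT D1 lowest. In microglia, 3 members passed the filter among 4846 genes, and 0 of 3 were called at PT D1 against uninjured (5.7% of all genes called), PT D7 against uninjured (0.165%) or PT D7 against PT D1 (3.8%) by edgeR. At an unadjusted p under 0.05 there were 3, 1 and 0, again without the share of all genes beside them. DESeq2 called 0 in each, but it gave Hist1h2bc no adjusted p, so that its 0 cannot decide on this gene.

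Hist1h2bc had 79.3 and 35.3 CPM in uninjured microglia, 9.1 and 19.4 in those of PT D1, and 29.2 and 26.0 in those of PT D7, without overlap between uninjured and either PT group. Its log2 change at PT D1 was -1.89 (SE 0.55, edgeR adjusted p = 0.0689). Same-numbered microglial libraries deviated together, and with the number as a replicate block it passed (edgeR adjusted p = 0.0164), in a fit that called 639 of 4846 genes in place of 276; the numbers within PT D7 are not certain. It also passed with no filter (0.00979), without PT D1 library 2 (0.0463) and without cells holding 3 or more markers of the other class (0.0491), and missed the threshold in the other edgeR fits that tested it, with the highest adjusted p without uninjured library 1 (0.559). No member could be tested with at least 10 counts in every sum, in thinned cells or in cells with at most 10% mitochondrial UMIs, and DESeq2 gave Hist1h2bc no adjusted p. Hist1h1c had 34.0 and 27.0, 6.1 and 9.7, and 4.2 and 11.1 CPM, with a log2 change of -1.86 (SE 0.75, adjusted p = 0.178) at PT D1. Hist3h2a had 31.2 and 18.7, 6.1 and 4.9, and 37.6 and 11.1 CPM, with a change of -2.10 (SE 0.89, adjusted p = 0.192). All 3 were lower in both PT D1 libraries than in both uninjured ones. The PT D1 values rest on few counts by library: 3 and 8 UMIs of Hist1h2bc, 2 and 4 of Hist1h1c, and 2 and 2 of Hist3h2a. The share of all tested genes with such a separation is not given here, so this count has no background.

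**Figure D4:**
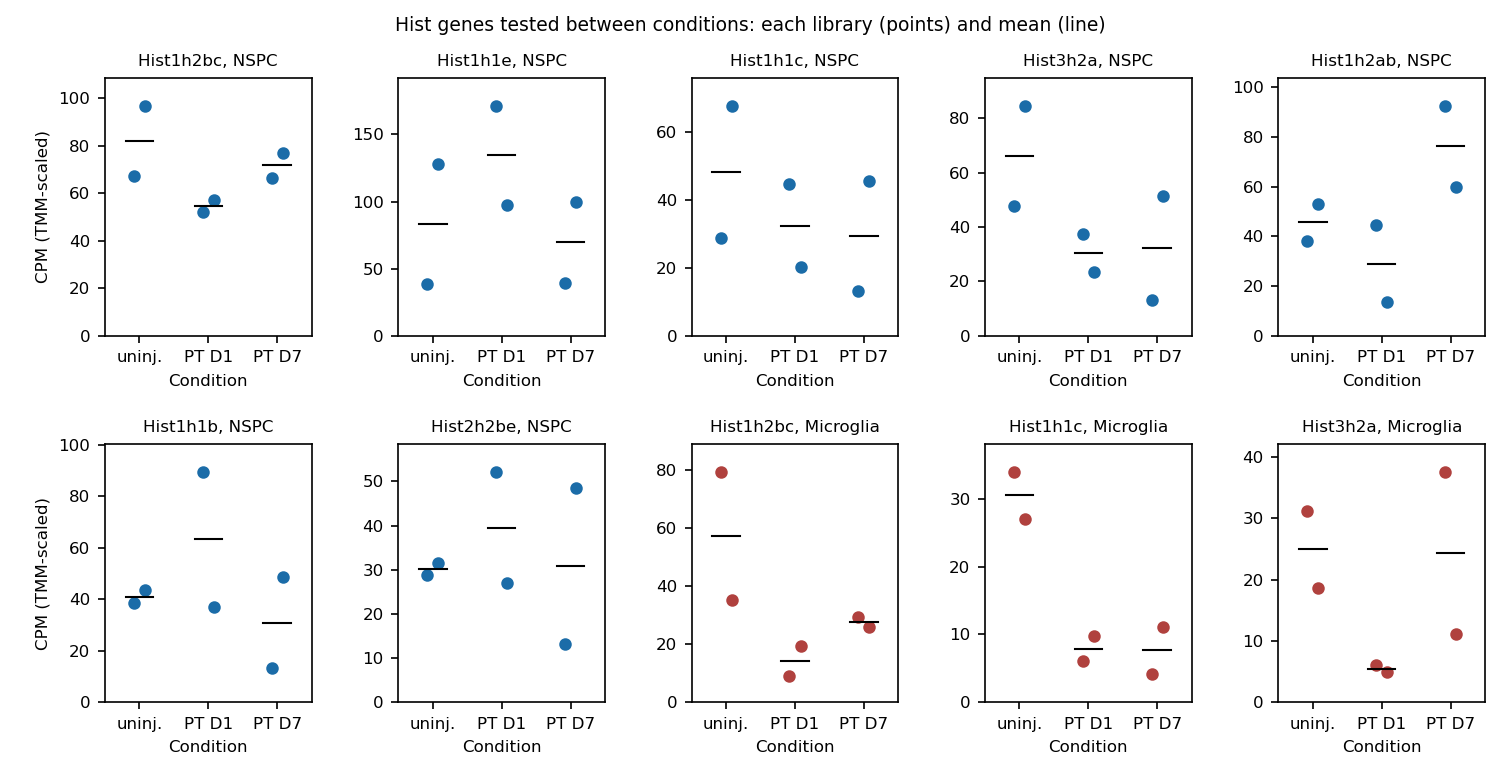
TMM-scaled CPM of the 7 Hist genes tested in NSPCs (blue) and the 3 tested in microglia (red); points are the 2 libraries of each condition and the line is their mean. In microglia all 3 genes are lower in both PT D1 libraries than in both uninjured libraries, without the share of all tested genes beside it. Each PT D1 value there rests on 2 to 8 UMIs. In NSPCs most libraries overlap between conditions.

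The make-up of the microglia moved with the condition. All 104 activated microglia came from PT D1, where 1 homeostatic microglial cell remained, against 124 in the uninjured and 50 in the PT D7 libraries. Within homeostatic microglia the summed level was 190 and 146 CPM in the uninjured and 112 and 106 CPM in the PT D7 libraries. Without TMM scaling, Hist1h2bc there was at 82.3 and 37.8 against 32.0 and 32.6 CPM, and Hist1h1c at 39.4 and 27.0 against 0 and 8.1 CPM. Condition and subcluster cannot be told apart for PT D1. The choroid plexus and ependymal markers, summed above for each group, were also higher in the uninjured microglia, and both tested members of that list (Ttr and Enpp2) were lower at PT D1 and at PT D7. The part of these markers in the result was not tested. By cell, Hist1h2bc had 45 UMIs in 31 uninjured microglia, 11 in 11 at PT D1 and 14 in 13 at PT D7. Hist1h1c had 25 in 21, 6 in 5 and 4 in 4. Fewer cells thus showed a UMI at PT D1 and PT D7. At this depth, fewer cells with a transcript and less RNA per cell cannot be told apart.

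The related lists did not pass between conditions either. In NSPCs, 10 histone variants, 8 processing genes and 16 chaperones were tested and 0 were called by edgeR or DESeq2 at PT D1 against uninjured, with 3, 0 and 0 at an unadjusted p under 0.05 by edgeR. At PT D7 against uninjured there were 0, 0 and 0 and at PT D7 against PT D1 3, 0 and 1. In microglia, 7 variants, 5 processing genes and 12 chaperones were tested, again with 0 called by either tool in the 3 comparisons, and with 2, 1 and 2 at an unadjusted p under 0.05 at PT D1 against uninjured, 0, 0 and 1 at PT D7 against uninjured and 1, 2 and 0 at PT D7 against PT D1.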

How the data were processed

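Single cells of the lateral SVZ were sequenced by mCEL-Seq2. The labels name bcl2fastq 2.17.1.14 for demultiplexing and the build GRCm39; no counting tool is named in the sources used here. The authors deposited raw UMI counts per gene and cell together with a table of class, subcluster and Phase for each cell, and its percent of mitochondrial UMIs, deposited as a percent, was used to set aside cells in an alternative; S and G2M scores in that deposited table were not used for any value. In all, 11 columns of the cell table were not used. Libraries were read from the start of each cell name; for PT D7 the library number was taken as its last digit, which is not certain, and the same-number correlations and the replicate block rest on it.

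UMI counts were summed per class and library, and per class, library and Phase (at least 10 and 3 cells). edgeR 4.0.16 (R 4.3.3) fitted TMM-scaled sums, filtered by filterByExpr, with the quasi-likelihood test and Benjamini-Hochberg adjustment over all genes tested; calls were made at an adjusted p under 0.05. The 3 conditions entered 1 fit and library was a block for Phase. Each SE beside an edgeR log2 change was derived as the absolute change over the square root of the F statistic. It is approximate, above all for members without counts in a group. Classes and subclusters were drawn from these genes and were not tested. DESeq2 1.42.0, other filters, no TMM, other cell sets, thinning to 1000 UMIs and leaving out each library were alternatives. Same-numbered microglial libraries deviated together (correlations 0.209, 0.184 and 0.254), NSPC ones did not (0.0798, -0.0545 and -0.0187). Intervals (95%) and the floor of 3 counts cover counting error only.

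The script for sums and fits was tested on simulated data. Doublets were not called here. The deposited cells are those the authors kept. Named in full were the 20 members with the most UMIs and every member called; of each other list, counts were given and at most 3 genes with the most UMIs, plus called genes of the histone lists. Members and lists were chosen with earlier results of these data known. Older symbols were matched to GENCODE M39 (GRCm39) through RefSeq synonyms (GRCm38.p6, names only).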

Additional observations from a re-analysis of the deposited data

Results flagged for a closer look

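The 20 cells of the mixed cluster (Unknown/Ependymal) enter none of the comparisons, and their Hist UMIs lay above the floor of 3 counts (16.1 CPM over these cells). Their summed level was 730 CPM on 136 UMIs. Hist1h1c was at 327 CPM on 61 UMIs in 11 cells, with 14 UMIs in the richest cell, and Hist1h2bc at 284 CPM on 53 UMIs in 14 cells, with 15 in the richest. By library, Hist1h1c had 72.5 CPM (uninjured library 2), 422 and 1503 CPM (PT D1) and 55.8 and 68.0 CPM (PT D7), and 35 of its 61 UMIs came from the 3 cells of PT D1 library 2, without which it was at 159 CPM. Hist1h2bc had 526, 141 and 386, and 112 and 170 CPM in the same order, with 29 of its 53 UMIs in uninjured library 2, without which it was at 183 CPM. Hist3h2a was at 37.6 CPM, Hist1h4i at 26.8, Hist2h2be at 21.5 and Hist2h3c2 at 21.5 CPM, each on 4 to 7 UMIs. Hist1h1b and Hist1h1e had 1 UMI each there, and Hist1h1c made up 96.8% of the H1 UMIs (61 of 63, exact binomial interval 89.0 to 99.6). By library the summed level ranged from 223 CPM (PT D7 library 1, 5 cells) to 2061 CPM (PT D1 library 2, 3 cells), and the 4 cells of uninjured library 2 had 725 CPM beside 99368 CPM of choroid plexus and ependymal markers, against 1340 to 3434 CPM of these markers in the mixed cells of the PT libraries. No group held enough libraries for a check of single outlying libraries, since each condition had 2.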

How the results depend on the processing

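For S and G2M against G1 cells in NSPCs the count of called members, 0 when none passed the filter, was 3 and 5 with no filter, 3 and 5 with at least 10 counts in total, and 1 and 1 with at least 5 cells per sum, where 1 member was tested and 523 and 559 of 2079 genes were called; leaving out 1 library gave 0 to 1 in both, with 0 or 1 member tested. With no filter, leaving out 1 library gave 1 to 3 in S and 3 to 5 in G2M, and no TMM gave 3 and 4. In microglia at PT D1 it was 1 in place of 0 with no filter (541 of 19178 genes called), with the replicate block (639 of 4846) and without cells with 3 or more markers of the other class (322 of 4527, with 1 member tested), and 0 to 1 leaving out 1 library (45 to 538 genes called, 255 of 5486 without PT D1 library 2); the replicate block changed no other call. Thinning moved the summed level to 96.2 CPM in activated and 81.1 CPM in disease-associated microglia, which reversed their order. With cells not thinned, shares of cells with a Hist UMI were 76.6%, 37.5% and 80.0% (mixed). Of the values for single NSPC members, 11 of 204 changed sign, none of them a call. Leaving out 1 library gave -0.18 to 1.08 for Hist1h1b, -0.055 to 1.69 for Hist1h1e and -0.19 to 0.21 for Hist2h2be at PT D1 (negative without PT D1 library 1, and for Hist1h1e also without uninjured library 1); -1.68 to 0.22 for Hist1h1b (positive without PT D7 library 1) and -1.41 to 1.10 for Hist1h1e (without uninjured library 2) at PT D7; and -2.13 to 0.14 for Hist1h1b (without PT D1 library 1) and -1.12 to 0.87 for Hist3h2a (negative without PT D7 library 2) between PT days. Hist1h1b at PT D7 was also 0.0022 without TMM and 0.0036 with no filter, and Hist2h2be between PT days -0.12 by DESeq2. In microglia 10 of 111 changed sign: -1.15 to 0.62 for Hist3h2a at PT D7 (positive without uninjured library 1 or PT D7 library 2), -0.87 to 0.49 for Hist1h1c between PT days (positive without PT D1 library 2 or PT D7 library 1) and -4.54 to 0.58 for Hist1h2bc in S cells (negative without uninjured library 2), which was also -0.11 with no filter and -0.33 with at least 10 counts in total, and in G2M cells -0.35, -0.16 and, with no replicate block, -0.0039. The cause was not tested. Depth limits what could be tested: with 2 libraries per condition and 1094 Hist UMIs in all, 22 of 29 members could not be tested between conditions in NSPCs and 26 in microglia. NSPCs with at most 10% mitochondrial UMIs could not be fitted, nor microglia with at least 5 cells per sum in G2M; at least 10 counts in every sum left too few genes by phase.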

Other observations

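Quiescent type B cells, taken by condition as a description, had a summed Hist level of 487 and 432 CPM in the uninjured libraries (3 and 14 cells), 167 and 164 CPM at PT D1 (4 and 14 cells) and 201 and 348 CPM at PT D7 (4 and 11 cells). The uninjured libraries lay above all 4 PT libraries, on 7 and 45 Hist UMIs against 4 to 19. In type C cells the levels were 669 and 809, 727 and 489, and 399 and 728 CPM in the same order, and the conditions overlapped. Hist4h4, the only member of its cluster, gave 44 UMIs in 44 cells, never more than 1 in a cell.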
